A study of Homo sapiens with 12 samples.

Results

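The genes described here supply amino acids to the cell and load them onto transfer RNAs (tRNAs). They are the cytosolic aminoacyl-tRNA synthetases, amino acid transporters, and enzymes of serine, asparagine, one-carbon, proline and cysteine synthesis with PCK2. The set was listed by gene name and its rule used no measured value, but earlier results of these data were known when it was chosen. Each probe set (a group of array probes for a transcript) annotated to exactly 1 of 38 listed genes was taken. In all, 36 of the 38 had such a probe set, of 19775 genes so represented on the array. MARS1 and QARS1, the methionyl- and glutaminyl-tRNA synthetases, share their probe sets with a microRNA gene in the annotation and have no value here. A gene was tested where a probe set exceeded a log2 value of 4 on at least 3 arrays. This held for 34 members of the set and for 11154 genes of the series, and each of these 34 exceeded it on all 12 arrays, with 4.57 as the lowest value. SHMT1, the cytosolic serine hydroxymethyltransferase, and MTHFD1L, a mitochondrial enzyme that releases formate, were too dim to test.

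The arrays measured RNA of HK-2, a line of human proximal tubule epithelial cells immortalized with papillomavirus genes, so every group is the same single cell line. Cells received CsA for 48 h, the control vehicle for 48 h, CsA for 12 h, or the control vehicle for 12 h, with 3 arrays a group that the labels call biological replicates. CsA is read here as cyclosporin A, an immunosuppressant that binds cyclophilins and inhibits calcineurin and can injure the kidney. The sources used here do not give its dose, the vehicle, or whether medium was renewed during exposure. The medium was a defined one with growth factors, hormones and a stabilized form of glutamine. Each member's value is a log2 GCRMA value, so a difference of 1 is a 2-fold difference. Values show relative change of a transcript and not its amount against another transcript.

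An aminoacyl-tRNA synthetase joins an amino acid to its tRNA, and the loaded tRNA carries it to the ribosome. When an amino acid runs short, uncharged tRNA activates the kinase GCN2 (gene EIF2AK4), which lowers general translation but raises translation of the transcription factor ATF4. ATF4 is also raised by the kinase PERK when proteins misfold in the endoplasmic reticulum. It binds a C/EBP-ATF response element, often as a dimer with a C/EBP protein, and is known to activate genes for transporters, for asparagine and serine synthesis and for several synthetases. In the proximal tubule, amino acids filtered by the glomerulus are taken back by transporters.

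The letters TGATGNAA, the core of that response element, were searched on both strands in RefSeq promoters of GRCh38.p14, from 250 bases before to 50 after each gene's start. A promoter was in the table for 30 of the 38 genes, and 7 of these 30 (23.3%) held the letters, against 1046 of all 27305 promoters (3.83%) and 174 of the 9213 of tested genes (1.89%). These shares describe letters in 1 window per gene and were not tested. A site outside that window, or near another start of the gene, would be missed. The matches are printed to show the letters in the members that hold them, MARS1 included, which has no value: 5 of 14 synthetase promoters and 2 of 5 transporter promoters held the letters, against 0 of 7 promoters of serine, asparagine and one-carbon genes and 0 of 4 of the proline and cysteine group. Each line runs 5′ to 3′ along the gene's own strand, with the match in capitals, as TGATGNAA or as its reverse complement TTNCATCA.
AARS1: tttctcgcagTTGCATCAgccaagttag
GARS1: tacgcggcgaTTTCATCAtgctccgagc
IARS1: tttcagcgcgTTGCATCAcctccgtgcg
MARS1: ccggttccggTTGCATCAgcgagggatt
NARS1: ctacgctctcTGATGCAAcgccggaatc
SLC7A1: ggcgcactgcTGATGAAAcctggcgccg
SLC1A5: aggaagtggcTGATGCAAgctgtccagg
With the gene's start as position 1, the first capital stood at position -187 in AARS1 (chr16:70289676-70289703, minus strand), -33 in GARS1 (chr7:30594835-30594862, plus strand) and -13 in IARS1 (chr9:92293693-92293720, minus strand). It stood at position -4 in MARS1 (chr12:57488054-57488081, plus strand) and 15 in NARS1 (chr18:57621805-57621832, minus strand). In the transporters it stood at position 8 in SLC7A1 (chr13:29595664-29595691, minus strand) and -97 in SLC1A5 (chr19:46784894-46784921, minus strand). LARS1, VARS1, YARS1, SLC7A11, PSPH, SHMT2, ALDH1L2 and PYCR1 were not in the promoter table.

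The share of probe sets above a log2 value of 4 was 42.2% to 42.8% over the arrays. Tested genes had a median SD of 0.20 with CsA at 48 h, 0.147 in control at 48 h, 0.107 with CsA at 12 h and 0.103 in control at 12 h. The members' own median SD was 0.168, 0.123, 0.150 and 0.072 in the same order of groups. Among the markers of HK-2's labelled origin, 3 of 13 proximal tubule genes (MME, CDH6 and PAX8) were above the filter while LRP2, CUBN and AQP1 were not, and 3 of 4 epithelial genes were. Of markers of other cells, 4 of 5 fibroblast and mesangial genes (COL1A1, PDGFRB, DCN and LUM), 2 of 4 podocyte genes (PODXL and SYNPO) and 2 of 5 genes of the loop, distal tubule and collecting duct (SLC12A1 and AQP2) were above it, while none of 4 endothelial and 4 leukocyte genes was. Their part in the results was not tested. CsA replicate 3 at 48 h stood apart: the mean of 20 mitosis genes was 10.24 there, against 8.27 and 7.70 on its 2 fellow arrays, and its median hybridization control signal was 10.47, against 11.53 to 12.72 on the other arrays. Poly-A control signals were low on replicate 1 of both 48 h groups (4.13 with CsA and 3.78 in control, against 8.26 to 9.99 elsewhere).

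The largest movement of these genes was between 48 h and 12 h of control culture, a comparison without CsA. Of 34 tested members, 27 rose, 2 fell (HARS1 and MTHFD1) and 5 did not pass the test (KARS1, RARS1, VARS1, PSAT1 and ALDH18A1), at an adjusted p below 0.05 (limma, Benjamini-Hochberg over 11154 genes). Over all genes 24.6% rose and 20.9% fell. The members' median log2 change was 1.29, from -0.51 to 4.27, beside 0.028 over all genes tested. All 3 arrays at 48 h lay above all 3 at 12 h for 29 members and below them for 2, beside 31.8% and 28.4% of all genes. In the same control arrays the mean of the 20 mitosis genes was 9.26 to 9.71 at 48 h, against 11.83 to 11.94 at 12 h, and its part in the changes was not tested. In a bulk sample, more transcript per cell and more cells that hold it cannot be told apart, and neither can time in culture and any difference in handling between the 48 h and 12 h arrays.

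All 6 transporters rose in control culture. SLC7A11, which brings in cystine in exchange for glutamate, had 11.03, 11.19 and 11.30 in control at 48 h, against 7.18, 7.09 and 7.44 in control at 12 h, a 15.3-fold rise (log2 change 3.94, SE 0.23, adjusted p = 1.64e-06). SLC3A2, the heavy chain that carries SLC7A11 and SLC7A5 to the membrane, had 13.09, 12.96 and 13.38 in control at 48 h, against 10.17, 10.04 and 9.99 in control at 12 h, an 8.41-fold rise (log2 change 3.07, SE 0.12, adjusted p = 2.12e-07). SLC7A5, the light chain for large neutral amino acids, had 11.33, 11.54 and 11.63 in control at 48 h, against 9.58, 9.39 and 9.62 in control at 12 h (log2 change 1.97, SE 0.15, adjusted p = 4.93e-06). The cystine exchanger, its heavy chain and the partner light chain thus all lay higher at 48 h on every array, with no overlap. SLC7A1, a carrier of arginine, lysine and ornithine, had 12.49, 12.41 and 12.56 in control at 48 h, against 11.22, 11.20 and 11.25 in control at 12 h (log2 change 1.26, SE 0.11, adjusted p = 1.31e-05). The sodium-coupled carriers of neutral amino acids moved less. SLC38A2, which takes up small neutral amino acids, had 14.97, 14.93 and 14.91 in control at 48 h, against 14.59, 14.74 and 14.71 in control at 12 h (log2 change 0.26, SE 0.074, adjusted p = 0.015). SLC1A5, a glutamine carrier, had 11.04, 10.75 and 11.13 in control at 48 h, against 10.54, 10.44 and 10.57 in control at 12 h (log2 change 0.46, SE 0.13, adjusted p = 0.0139). SLC38A2 missed the threshold without control replicate 1 at 12 h (adjusted p = 0.0652) and SLC1A5 without control replicate 3 at 48 h (adjusted p = 0.0548).

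The enzymes of serine, asparagine and one-carbon synthesis spread widely: 6 of 8 tested rose, 1 fell and 1 did not pass. ALDH1L2, a mitochondrial enzyme that oxidizes formyl-tetrahydrofolate, had the largest rise of any member, 19.3-fold, with 9.80, 9.28 and 9.59 in control at 48 h, against 5.83, 4.57 and 5.44 in control at 12 h (log2 change 4.27, SE 0.39, adjusted p = 1.63e-05). Its 12 h values were the lowest of the set and lay just above the filter, where GCRMA's background correction makes a fold less certain. ASNS, which makes asparagine from aspartate and glutamine, had 12.76, 12.59 and 12.82 in control at 48 h, against 10.42, 9.50 and 9.95 in control at 12 h, a 6.8-fold rise (log2 change 2.77, SE 0.30, adjusted p = 5.44e-05). Both genes had their lowest 12 h value on replicate 2. SHMT2, the mitochondrial enzyme that splits serine into glycine and a one-carbon unit, had 13.48, 13.30 and 13.58 in control at 48 h, against 12.02, 11.91 and 11.96 in control at 12 h (log2 change 1.48, SE 0.10, adjusted p = 3.21e-06). MTHFD2, the mitochondrial dehydrogenase that passes that unit on, had 13.46, 13.17 and 13.51 in control at 48 h, against 12.43, 12.34 and 12.43 in control at 12 h (log2 change 0.98, SE 0.12, adjusted p = 0.000103). MTHFD1, which handles the same units in the cytosol, went the other way, with 12.22, 12.23 and 11.97 in control at 48 h, against 12.62, 12.60 and 12.61 in control at 12 h (log2 change -0.47, SE 0.082, adjusted p = 0.00106).

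The 3 enzymes of serine synthesis from glycolysis did not move alike. PSPH, the phosphatase of the last step, had 11.93, 11.56 and 11.81 in control at 48 h, against 10.23, 10.45 and 10.42 in control at 12 h (log2 change 1.40, SE 0.20, adjusted p = 0.00029). PHGDH, which opens the route, had 10.50, 10.56 and 10.51 in control at 48 h, against 10.07, 9.97 and 9.99 in control at 12 h (log2 change 0.51, SE 0.14, adjusted p = 0.0142). PSAT1, the transaminase between them, had 12.85, 12.79 and 12.75 in control at 48 h, against 12.68, 12.53 and 12.52 in control at 12 h, which did not overlap but did not pass (log2 change 0.22, SE 0.11, adjusted p = 0.121). The first and last steps of the route thus rose, the last one more. In the cysteine branch, CTH, which releases cysteine from cystathionine, had 11.34, 11.03 and 11.32 in control at 48 h, against 9.03, 9.10 and 9.10 in control at 12 h (log2 change 2.15, SE 0.14, adjusted p = 2.75e-06). CBS, which forms cystathionine, had 10.24, 10.46 and 10.61 in control at 48 h, against 8.95, 9.18 and 9.22 in control at 12 h (log2 change 1.32, SE 0.12, adjusted p = 1.53e-05). Both enzymes of that branch therefore rose, CTH by 4.45-fold and CBS by 2.49-fold. PCK2, the mitochondrial phosphoenolpyruvate carboxykinase, had 11.06, 10.91 and 11.21 in control at 48 h, against 8.82, 9.13 and 8.79 in control at 12 h (log2 change 2.14, SE 0.15, adjusted p = 3.56e-06). Of the proline route, PYCR1, the last enzyme, had 10.75, 10.83 and 11.15 in control at 48 h, against 9.49, 9.37 and 9.50 in control at 12 h (log2 change 1.46, SE 0.19, adjusted p = 0.000145), while ALDH18A1, the first, had a log2 change of 0.045 (95% interval -0.13 to 0.22) that did not pass.

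Among the 15 tested synthetases, 11 rose in control culture, HARS1 fell and KARS1, RARS1 and VARS1 did not pass. The alanyl-tRNA synthetase AARS1 had 12.65, 12.77 and 12.95 in control at 48 h, against 10.27, 10.29 and 10.40 in control at 12 h, a 5.55-fold rise and the largest among them (log2 change 2.47, SE 0.12, adjusted p = 6.98e-07). WARS1, for tryptophan, had 12.75, 12.59 and 13.08 in control at 48 h, against 10.85, 10.23 and 10.46 in control at 12 h (log2 change 2.29, SE 0.20, adjusted p = 1.44e-05). CARS1, for cysteine, had 12.36, 12.29 and 12.51 in control at 48 h, against 10.68, 10.65 and 10.65 in control at 12 h (log2 change 1.73, SE 0.098, adjusted p = 1.45e-06). These 3 lay at least 1.64 higher at 48 h on every same-numbered pair of arrays. SARS1, for serine, had 12.82, 12.81 and 13.02 in control at 48 h, against 11.27, 11.14 and 11.14 in control at 12 h (log2 change 1.70, SE 0.11, adjusted p = 2.65e-06). YARS1, for tyrosine, had 12.37, 12.20 and 12.44 in control at 48 h, against 10.65, 10.60 and 10.75 in control at 12 h (log2 change 1.67, SE 0.14, adjusted p = 8.71e-06). GARS1, for glycine, had 13.75, 13.52 and 13.90 in control at 48 h, against 12.21, 12.14 and 12.27 in control at 12 h (log2 change 1.52, SE 0.14, adjusted p = 1.79e-05). GARS1 serves both the cytosol and mitochondria.

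A second group of synthetases rose by smaller steps. IARS1, for isoleucine, had 14.99, 15.03 and 15.16 in control at 48 h, against 13.89, 13.82 and 13.88 in control at 12 h (log2 change 1.20, SE 0.092, adjusted p = 6.34e-06). LARS1, for leucine, had 12.06, 11.92 and 12.12 in control at 48 h, against 11.29, 11.01 and 11.02 in control at 12 h (log2 change 0.93, SE 0.13, adjusted p = 0.000269). EPRS1, a fused enzyme for glutamate and proline, had 12.72, 12.78 and 12.86 in control at 48 h, against 11.97, 11.92 and 11.97 in control at 12 h (log2 change 0.83, SE 0.085, adjusted p = 3.26e-05). No array of these genes at 48 h reached down to a 12 h value. NARS1, for asparagine, had 14.20, 14.08 and 14.14 in control at 48 h, against 13.45, 13.33 and 13.32 in control at 12 h (log2 change 0.78, SE 0.082, adjusted p = 4.03e-05). TARS1, for threonine, had 12.85, 12.78 and 12.74 in control at 48 h, against 12.11, 12.15 and 12.23 in control at 12 h (log2 change 0.62, SE 0.078, adjusted p = 0.000118). Both again showed no overlap between the times. HARS1, for histidine, fell, with 11.07, 11.08 and 10.87 in control at 48 h, against 11.68, 11.37 and 11.48 in control at 12 h (log2 change -0.51, SE 0.096, adjusted p = 0.00155). The other 3 did not pass: KARS1, for lysine, with a log2 change of 0.18 (95% interval -0.028 to 0.39), VARS1, for valine, with 0.17 (-0.062 to 0.41), and RARS1, for arginine, with -0.044 (-0.19 to 0.10). A promoter match was present in AARS1, GARS1, IARS1 and NARS1, which rose, and absent in CARS1, EPRS1, SARS1, TARS1 and WARS1, which rose too, and in HARS1, KARS1 and RARS1, which did not. It was also absent from the windows searched in SLC3A2, ASNS, CTH and PCK2. Absence here means absence from that window only, and not that the gene lacks the response element.

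**Figure D1:**
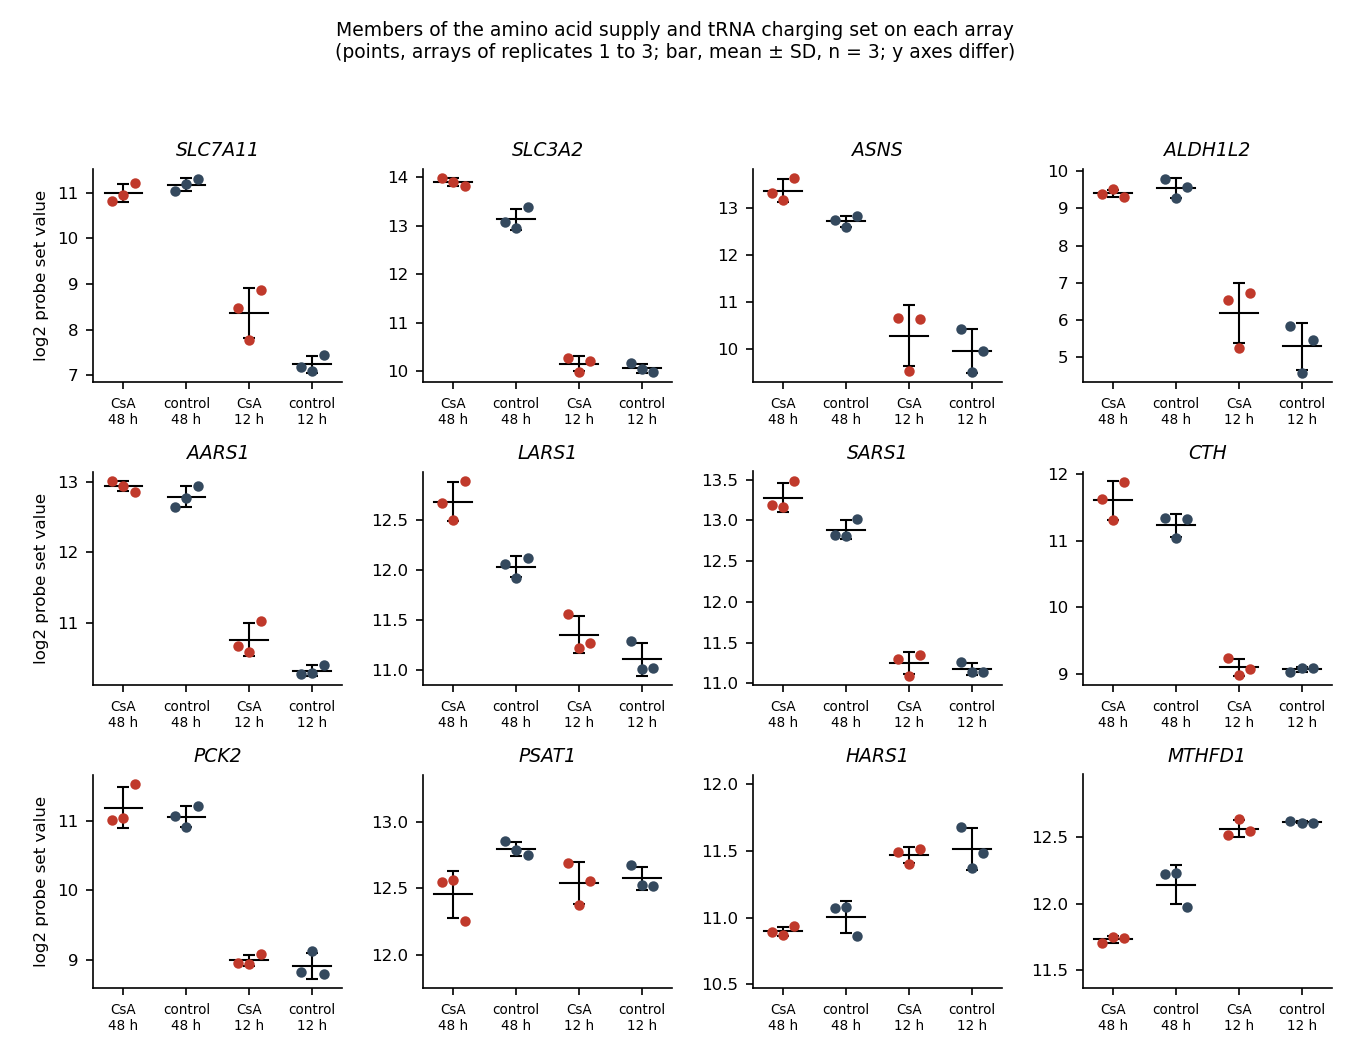
Log2 probe set values of 12 members on each array, by group from CsA at 48 h and control at 48 h to CsA at 12 h and control at 12 h, with the mean and SD of 3 arrays as bars; the y axes differ between panels. SLC7A11, SLC3A2, ASNS, ALDH1L2, AARS1, LARS1, SARS1, CTH and PCK2 lay higher at 48 h on every array of both treatments, and HARS1 and MTHFD1 lay lower.

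The same comparison within CsA-treated cells, added after the data had been examined and fitted on the 6 CsA arrays alone, gave 25 members higher and 2 lower at 48 h than at 12 h, with a median log2 change of 1.24. Over all genes 23.6% rose and 22.2% fell, with a median of 0.034. SLC3A2 had 13.98, 13.91 and 13.82 with CsA at 48 h, against 10.28, 9.98 and 10.21 with CsA at 12 h, a 13.4-fold rise and the largest with CsA (log2 change 3.75, SE 0.11, adjusted p = 4.83e-05). ALDH1L2 had 9.38, 9.52 and 9.32 with CsA at 48 h, against 6.54, 5.24 and 6.73 with CsA at 12 h (log2 change 3.24, SE 0.39, adjusted p = 0.00144). SLC7A11 had 10.81, 10.95 and 11.20 with CsA at 48 h, against 8.46, 7.77 and 8.86 with CsA at 12 h (log2 change 2.62, SE 0.28, adjusted p = 0.00104). In these cells, too, all 3 lay higher at 48 h on each array, but SLC7A11 started from higher 12 h values than in control. ASNS had 13.31, 13.16 and 13.63 with CsA at 48 h, against 10.66, 9.53 and 10.64 with CsA at 12 h (log2 change 3.09, SE 0.33, adjusted p = 0.000995). The same 2 members as in control fell, MTHFD1 by 0.83 and HARS1 by 0.57 on the log2 scale (adjusted p = 0.000729 and 0.00258). KARS1, RARS1, SLC38A2, SLC1A5, PHGDH, PSAT1 and ALDH18A1 did not pass, with log2 changes from -0.19 (ALDH18A1) to 0.33 (KARS1). VARS1 passed here (0.48, adjusted p = 0.0157) but not in control, and the difference of its changes did not pass (adjusted p = 0.326).

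**Figure D2:**
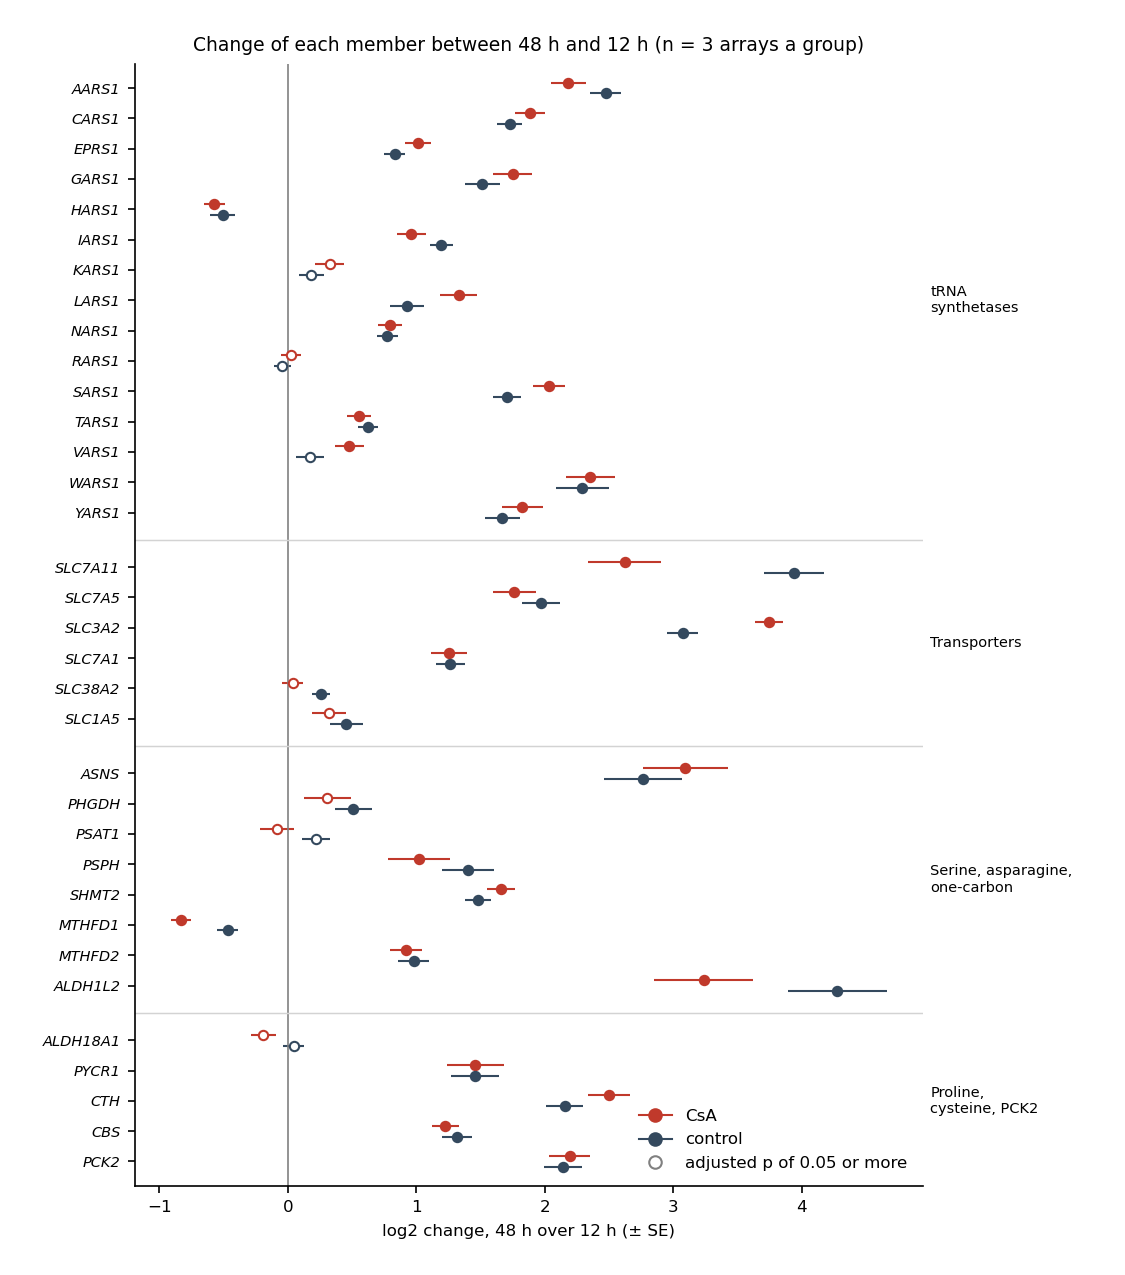
Log2 change of each tested member at 48 h over 12 h, with CsA (red) and in control (blue), as the estimate and its SE from 3 arrays a group; open symbols have an adjusted p of 0.05 or more. Most points lie right of 0 in both treatments, with SLC7A11, SLC3A2, ASNS and ALDH1L2 farthest out and HARS1 and MTHFD1 left of 0.

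At 48 h, the question was whether CsA changed these genes beyond their level in control culture. In all, 0 of 34 members passed in limma on the 48 h arrays alone, where 1.10% of all genes did (123 of 11154), and 10 members had an unadjusted p below 0.05, beside 21.8% of all genes. The members' median log2 change was 0.13, beside -0.005 over all genes, with 21 positive and 13 negative. All CsA arrays lay above all control arrays for 8 members and below them for 4, beside 13.9% and 15.8% of all genes. With all 12 arrays in 1 fit, whose spread is estimated over both times, 5 members were higher (CARS1, LARS1, SARS1, YARS1 and SLC3A2) and 2 lower (MTHFD1 and ALDH18A1), beside 6.20% and 9.89% of all genes. The median SD of tested genes was wider at 48 h (0.20 with CsA, 0.147 in control) than at 12 h (0.107 and 0.103). That fit can therefore understate the spread at 48 h, and the main test used the 48 h arrays alone for this reason. The CsA and time comparisons share the control arrays, so each is given with its own values.

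SLC3A2 came nearest to the threshold. It had 13.98, 13.91 and 13.82 with CsA, against 13.09, 12.96 and 13.38 in control at 48 h (log2 change 0.76, SE 0.14, adjusted p = 0.0596), and 0.00361 as adjusted p in the fit of 12 arrays. Every CsA array lay above every control array, and the closest 2 were CsA replicate 3 and control replicate 3. Its light chains did not show such a gap: SLC7A11 had 10.81, 10.95 and 11.20 with CsA, against 11.03, 11.19 and 11.30 in control (log2 change -0.19, 95% interval -0.53 to 0.15), and SLC7A5 had a log2 change of -0.20 (-0.57 to 0.17). Both of these intervals hold 0, while that of SLC3A2 was 0.43 to 1.10. SLC7A1, SLC38A2 and SLC1A5 had log2 changes of 0.20, -0.14 and -0.25, with adjusted p from 0.389 to 0.438.

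Of the 15 tested synthetases, 12 had a positive CsA effect at 48 h, and the arrays of CsA and control did not overlap for 6 of them, all higher with CsA. Over all genes, every CsA array lay above every control array for 13.9% and below for 15.8%. None of the 15 passed on the 48 h arrays alone. LARS1 had 12.66, 12.49 and 12.88 with CsA, against 12.06, 11.92 and 12.12 in control (log2 change 0.65, SE 0.13, adjusted p = 0.0702). YARS1 had 12.76, 12.64 and 13.04 with CsA, against 12.37, 12.20 and 12.44 in control (log2 change 0.48, SE 0.14, adjusted p = 0.131). CARS1 had 12.76, 12.71 and 12.86 with CsA, against 12.36, 12.29 and 12.51 in control (log2 change 0.39, SE 0.11, adjusted p = 0.113). For these enzymes of leucine, tyrosine and cysteine every CsA array lay above every control array. SARS1 had 13.19, 13.16 and 13.48 with CsA, against 12.82, 12.81 and 13.02 in control (log2 change 0.39, SE 0.13, adjusted p = 0.159). In the fit of 12 arrays, whose shared spread can be too narrow for 48 h, the adjusted p was 0.0106 for LARS1, 0.0236 for CARS1, 0.037 for SARS1 and 0.0385 for YARS1. Not every probe set of these genes moved alike: the 4 of LARS1 gave 0.11 to 0.65, the 2 of SARS1 -0.18 and 0.39, and the 2 of YARS1 0.48 and, for a dim set with a mean value of 4.87, 2.12. The 3 of CARS1 gave 0.39 to 0.44. AARS1, the synthetase that rose most with time, had a CsA effect of 0.15 (95% interval -0.13 to 0.43), and the other synthetases ranged from -0.11 (HARS1) to 0.41 (GARS1).

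Of the 13 tested enzymes, 7 had a positive and 6 a negative estimate at 48 h, and none passed. ASNS had 13.31, 13.16 and 13.63 with CsA, against 12.76, 12.59 and 12.82 in control at 48 h (log2 change 0.65, SE 0.15, adjusted p = 0.0873), with all CsA arrays above control. MTHFD1 had 11.70, 11.75 and 11.74 with CsA, against 12.22, 12.23 and 11.97 in control (log2 change -0.41, SE 0.11, adjusted p = 0.11). ALDH18A1 had 11.47, 11.46 and 11.59 with CsA, against 11.81, 11.89 and 11.86 in control (log2 change -0.34, SE 0.096, adjusted p = 0.116). CsA arrays of MTHFD1 and ALDH18A1 lay below all control arrays, and the adjusted p in the fit of 12 arrays was 0.0101 and 0.0169, while that of ASNS was 0.173. PSAT1 had 12.55, 12.56 and 12.25 with CsA, against 12.85, 12.79 and 12.75 in control, also without overlap and lower with CsA (log2 change -0.34, SE 0.12, adjusted p = 0.178). PHGDH had 10.28, 10.09 and 10.63 with CsA, against 10.50, 10.56 and 10.51 in control, with overlapping groups (log2 change -0.19, SE 0.15, adjusted p = 0.515). Both serine enzymes thus had negative estimates at 48 h, and neither passed. MTHFD2 had 13.62, 13.43 and 13.48 with CsA, against 13.46, 13.17 and 13.51 in control (log2 change 0.13, SE 0.13, adjusted p = 0.607), and its groups overlapped. CTH had 11.62, 11.30 and 11.88 with CsA, against 11.34, 11.03 and 11.32 in control, the largest effect of the proline and cysteine group, with overlap (log2 change 0.37, SE 0.18, adjusted p = 0.279). PCK2 had 11.00, 11.03 and 11.52 with CsA, against 11.06, 10.91 and 11.21 in control (log2 change 0.13, SE 0.17, adjusted p = 0.713), and its groups overlapped. Log2 changes of the other members, PSPH, SHMT2, ALDH1L2, PYCR1 and CBS, ranged from -0.29 to 0.20. CsA replicate 3, the array with a high mitosis mean, was the highest of the 3 CsA arrays for 20 of the 34 members, LARS1, SARS1, YARS1, CARS1, GARS1, ASNS and CTH among them, and the lowest for 8. This was not particular to that array: control replicate 3 at 48 h was the highest of its group for 21 members and the lowest for 6. Without CsA replicate 3 no member passed, and the members' median change was 0.065. That median was 0.072 without control replicate 1 and 0.063 without control replicate 2.

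At 12 h, no member passed: 0 of 34 in limma on the 12 h arrays, beside 0% of all genes, with 7 members and 7.68% of all genes (857 of 11154) at an unadjusted p below 0.05. In the fit of 12 arrays 0 members and 1 gene passed. With the replicate number as a block in limma on the 12 h arrays, 0 members and 2 genes passed. In that fit 10 members and 1709 of 11154 genes had an unadjusted p below 0.05. The median log2 change of the members was 0.083, beside -0.0068 over all genes, with 25 positive and 9 negative. It was 0.046 without CsA replicate 3 and 0.14 without CsA replicate 2. Of the CsA arrays at 12 h, replicate 3 was the highest for 26 members and replicate 2 the lowest for 29. All CsA arrays lay above all control arrays for 7 members (AARS1, CARS1, GARS1, YARS1, SLC7A11, SLC7A1 and CBS) and below them for RARS1 and VARS1, beside 6.53% and 6.51% of all genes.

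The largest difference at 12 h was that of SLC7A11. It had 8.46, 7.77 and 8.86 with CsA, against 7.18, 7.09 and 7.44 in control, 2.19 times as high with CsA (log2 change 1.13, SE 0.27, adjusted p = 0.484). Replicate 2 was the lowest array in both groups, and same-numbered pairs differed by 1.28, 0.68 and 1.42. A second probe set of SLC7A11 gave a log2 change of 0.88. Its heavy chain SLC3A2 had 10.28, 9.98 and 10.21 with CsA, against 10.17, 10.04 and 9.99 in control (log2 change 0.089, SE 0.097, adjusted p = 0.9), and those groups overlapped. ALDH1L2 had 6.54, 5.24 and 6.73 with CsA, against 5.83, 4.57 and 5.44 in control, with overlap, since replicate 2 was the lowest array in both groups (log2 change 0.89, SE 0.48, adjusted p = 0.749). Its same-numbered arrays, which are read as paired at 12 h, differed by 0.71, 0.67 and 1.29, and with the replicate block the SE was 0.14 and the adjusted p 0.178. AARS1 had 10.66, 10.58 and 11.02 with CsA, against 10.27, 10.29 and 10.40 in control (log2 change 0.44, SE 0.12, adjusted p = 0.499). CBS had 9.29, 9.30 and 9.46 with CsA, against 8.95, 9.18 and 9.22 in control (log2 change 0.24, SE 0.095, adjusted p = 0.643). AARS1 and CBS, the members farthest from 0 in their groups, were higher with CsA on every array.

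ASNS, a gene whose arrays varied most at 12 h after ALDH1L2, had 10.66, 9.53 and 10.64 with CsA, against 10.42, 9.50 and 9.95 in control (log2 change 0.32, SE 0.37, adjusted p = 0.909). Replicate 2 was again the lowest in both groups, and the 95% interval of the change was -0.57 to 1.22. PHGDH had 9.92, 9.85 and 10.30 with CsA, against 10.07, 9.97 and 9.99 in control (log2 change 0.015, SE 0.12, adjusted p = 0.991). PSAT1 had 12.69, 12.38 and 12.55 with CsA, against 12.68, 12.53 and 12.52 in control (log2 change -0.035, SE 0.096, adjusted p = 0.973). Neither serine enzyme differed by as much as its arrays spread. MTHFD2 had 12.69, 12.36 and 12.71 with CsA, against 12.43, 12.34 and 12.43 in control (log2 change 0.19, SE 0.11, adjusted p = 0.765). PCK2 had 8.95, 8.95 and 9.08 with CsA, against 8.82, 9.13 and 8.79 in control (log2 change 0.079, SE 0.10, adjusted p = 0.922). The groups of these 4 overlapped, and the remaining members had log2 changes from -0.25 (VARS1) to 0.32 (YARS1).

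**Figure D3:**
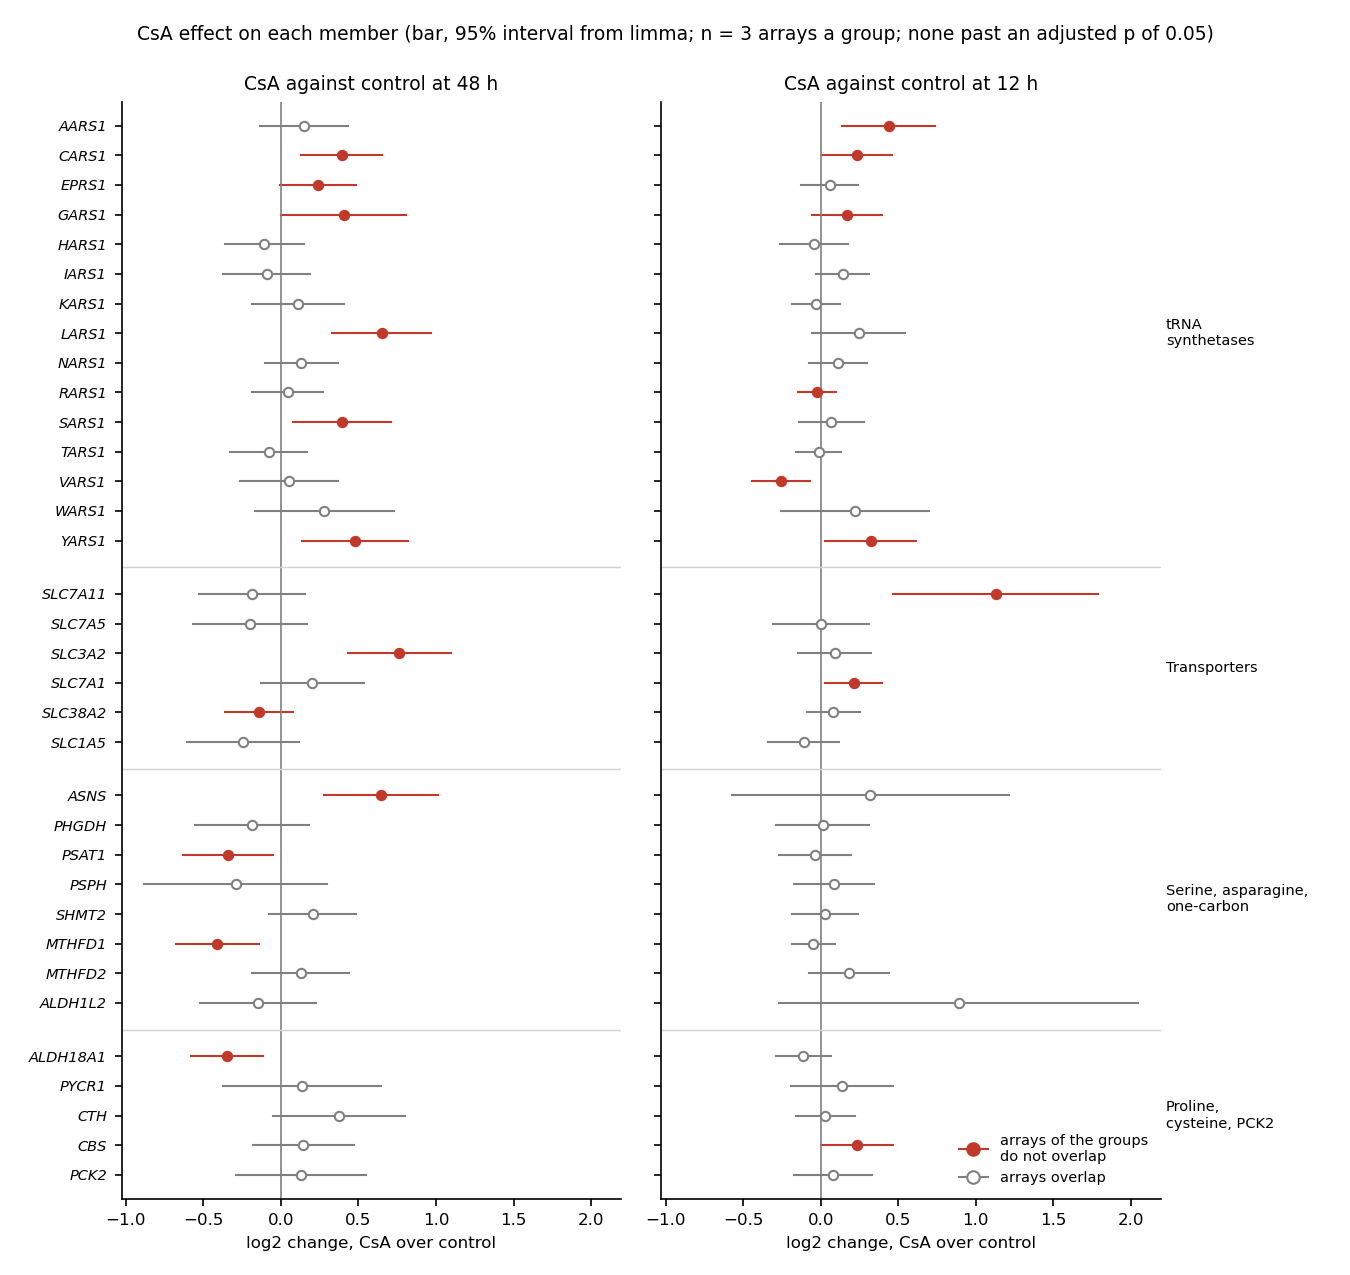
Log2 change of each tested member with CsA over control at 48 h (left) and 12 h (right), with the 95% interval from limma on that time's 6 arrays; red symbols mark members whose CsA and control arrays do not overlap. SLC3A2, LARS1 and ASNS lie farthest right at 48 h, SLC7A11 and ALDH1L2 at 12 h, and none passed an adjusted p of 0.05.

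The difference between the CsA effects at 48 h and 12 h was tested as an interaction over all 12 arrays. No member passed (0 of 34, beside 1.12% of all genes, 125 of 11154), and 3 had an unadjusted p below 0.05, a smaller share than the 17.4% of all genes. Their values are given as a description. SLC7A11 had the largest difference, with CsA effects of -0.19 at 48 h and 1.13 at 12 h (difference -1.32, SE 0.33, adjusted p = 0.0824). Its heavy chain SLC3A2 went the other way, with effects of 0.76 at 48 h and 0.089 at 12 h (difference 0.67, SE 0.17, adjusted p = 0.0878). MTHFD1, the third, had a difference of -0.36 (adjusted p = 0.152). With the replicate number as a block, SLC7A11 passed (adjusted p = 0.0298) while SLC3A2 did not (adjusted p = 0.0589), beside 3.55% of all genes. Without control replicate 3 at 48 h, SLC3A2 (adjusted p = 0.029) and MTHFD1 (adjusted p = 0.049) passed, beside 329 of all 11154 genes. No member passed when any other single array was left out.

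Other genes of amino acid supply, listed by their roles in the pathway, were read beside the members. Of 71 listed, 57 were tested, and between 48 h and 12 h of control culture 22 rose, 11 fell and 24 did not pass, with a median log2 change of 0.19. The shares over all genes were 24.6% higher and 20.9% lower. Amino acid sensing and its targets held the largest changes: 8 of 11 rose, and EIF2AK4, the gene of GCN2, fell (-0.36). The risers, with their log2 changes, were DDIT3 (4.84), ATF3 (4.02), CHAC1 (3.50), TRIB3 (2.01), IMPACT (1.43), CEBPB (1.41), ATF4 (1.33) and SESN2 (1.25). CHAC1 had 5.23, 5.05 and 4.82 in control at 12 h, not far above the filter, so the size of its rise is less certain. DDIT3, which encodes CHOP, had 13.80, 13.40 and 14.41 in control at 48 h, against 9.04, 9.04 and 8.99 in control at 12 h (SE 0.26, adjusted p = 9.66e-07). ATF4 itself had 13.85, 13.97 and 13.94 in control at 48 h, against 12.53, 12.52 and 12.71 in control at 12 h (SE 0.099, adjusted p = 5.29e-06). GCN1 and DDIT4 did not pass.

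Transporters outside the members also rose more often than they fell: 9 of 14 tested rose, with log2 changes in SLC6A9 (3.14), SLC1A3 (2.09), SLC7A2 (1.55), SLC1A4 (1.25), SLC38A1 (0.94), SLC38A9 (0.80), SLC38A7 (0.54), SLC36A1 (0.37) and SLC7A6 (0.35), and SLC36A4 fell (-0.50). SLC6A9 carries glycine and SLC7A2 carries cationic amino acids. SLC6A9 passed the filter only through its 48 h arrays. It had 4.87, 5.33 and 5.55 in control at 48 h, against 1.88, 2.32 and 2.12 in control at 12 h. Those 12 h values lie below the minimum of 4, so the size of its rise is uncertain. The mitochondrial synthetases, made by separate genes for the organelle's own translation, moved both ways: 3 of 15 tested rose (EARS2, PARS2, NARS2), 3 fell (CARS2, AARS2, LARS2) and 9 did not pass, with a median of 0.093 beside 0.93 for the 15 cytosolic members. Their counts stand beside 24.6% higher and 20.9% lower over all genes. The cytosolic phenylalanyl-tRNA synthetase subunits FARSA and FARSB and the scaffold AIMP1 did not pass in control (0.20, 0.27 and 0.15), but with CsA they rose at 48 h over 12 h (0.57, 0.70 and 0.47, adjusted p from 0.00554 to 0.00698). The difference between these changes did not pass for any of them (adjusted p from 0.21 to 0.239). The other amino acid and one-carbon enzymes leaned down, with 2 of 14 higher (ASS1 and MAT2A) and 6 lower. The fallers were TYMS (-1.40), PYCR3 (-0.82), OAT (-0.58), SFXN1 (-0.55), GOT2 (-0.54) and GLUL (-0.41), where TYMS makes thymidylate and OAT turns ornithine toward proline and glutamate. PYCR3 lay near the minimum of 4, with 4.17, 4.18 and 3.35 in control at 48 h, against 4.78, 4.75 and 4.64 in control at 12 h. The size of its fall is therefore uncertain.

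**Figure D4:**
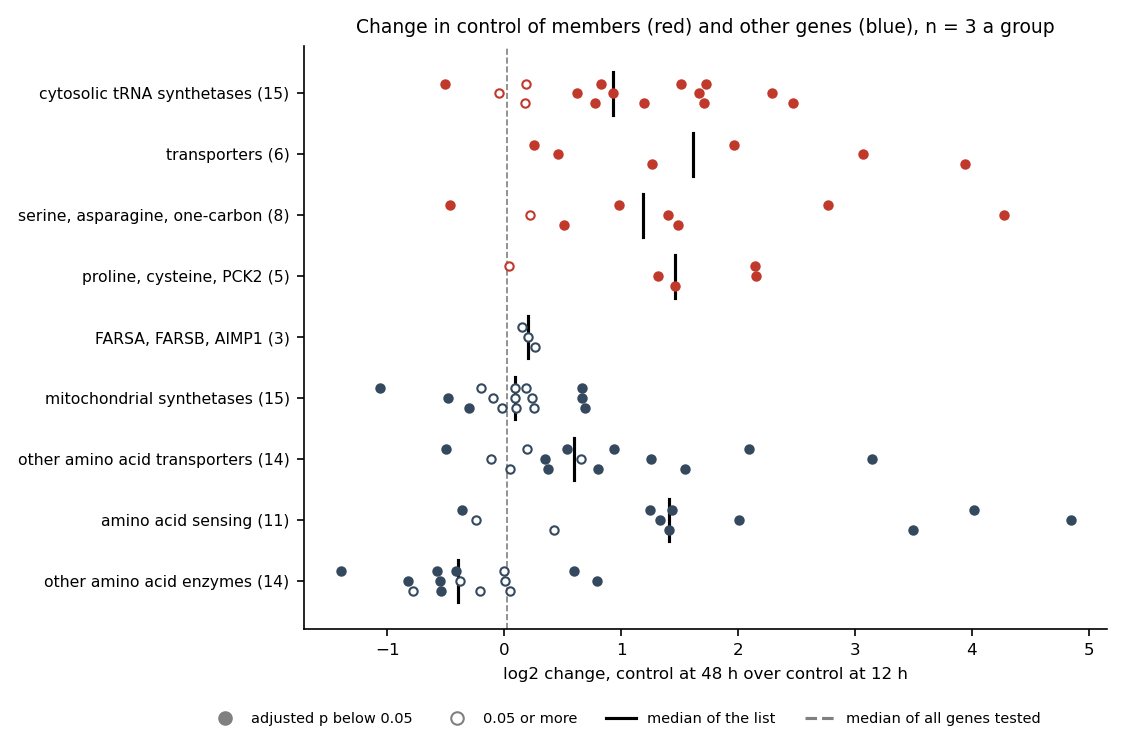
Log2 change of single genes in control at 48 h over control at 12 h, by list, with members in red and other genes of amino acid supply in blue; filled symbols have an adjusted p below 0.05, and black bars are list medians. Cytosolic synthetases, transporters, sensing genes and the members' enzymes sit mostly right of the dashed median of all genes (0.028), and mitochondrial synthetases and the other enzymes lie around or left of it.

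With CsA, 1 of these 57 genes passed at 48 h on the 48 h arrays alone, beside 1.10% of all genes. ATF3, a stress-induced transcription factor, had 13.50, 13.57 and 13.49 with CsA, against 12.82, 12.85 and 12.74 in control (log2 change 0.71, SE 0.094, adjusted p = 0.0454), and it did not pass in the fit of 12 arrays (adjusted p = 0.2). FARSA, FARSB and AIMP1 were higher with CsA at 48 h with no overlap of arrays (0.34, 0.41 and 0.28, adjusted p from 0.142 to 0.23), and FARSB passed in the fit of 12 arrays (adjusted p = 0.0388). Over all genes, 13.9% were higher with CsA without overlap, and 6.20% were called higher in that fit. The largest changes at 48 h were -2.90 for SLC1A3, a glutamate carrier (SE 0.82, adjusted p = 0.119), -1.28 for SLC3A1, the heavy chain of the kidney's cystine carrier (adjusted p = 0.188), and 0.73 for GLUD1, glutamate dehydrogenase (adjusted p = 0.334). SLC1A3 had 5.93, 7.33 and 4.67 with CsA, against 7.80, 10.16 and 8.67 in control. SLC3A1 was dim, with 5.48, 4.54 and 3.64 with CsA, against 5.61, 6.33 and 5.58 in control. GLUD1 had 12.08, 12.09 and 13.41 with CsA, against 11.39, 11.92 and 12.07 in control. Its highest value was on CsA replicate 3, the array that stood apart. At 12 h none passed, and the largest were 1.31 for CHAC1, which degrades glutathione, 0.70 for DDIT3 and 0.52 for TRIB3, a pseudokinase that restrains ATF4 (adjusted p from 0.405 to 0.484). CHAC1 was dim, with 6.13, 5.84 and 7.07 with CsA, against 5.23, 5.05 and 4.82 in control. Between the times, SLC36A4, a lysosomal and surface amino acid carrier, was the only gene of the list whose difference in CsA effect passed, with -0.60 at 48 h and -0.013 at 12 h (difference -0.58, adjusted p = 0.0478). The share of all genes that passed was 1.12%.

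Several members were measured by more than 1 probe set, which gives a check within the array. In total 74 probe sets were annotated to the members and 61 passed the filter. Of 18 members with more than 1 passing set, 17 had the same sign of the control time change in all sets, ALDH18A1 being the exception with 0.045 and -0.066. The sets of SLC7A11 gave 3.94 and 3.73, those of CTH 2.15 and 2.50, and those of SHMT2 1.48 to 1.71. Control time changes differed by more than 0.5 between the sets of YARS1 (1.67 and 0.69) and of SLC7A1 (0.10 to 1.32 over 5 sets). CsA effects at 48 h differed by more than 0.5 in YARS1, SARS1 and LARS1, as given above, and in SLC7A1 (-0.02 to 1.27). At 12 h only those of SLC7A1 did (-0.013 to 0.53). The 1.27 and 0.53 of SLC7A1 came from a dim set with a mean value of 4.30, and its 0.10 from one with a mean of 3.82. A brighter set of SLC7A1, with a mean of 7.84, gave 0.81 at 48 h. The 0.69 of YARS1 came from its dim set.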

How the data were processed

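RNA from HK-2 cells on 12 Affymetrix arrays in 4 groups of 3 was analysed from the authors' table of 54675 probe sets. The deposited values are log2 summaries that the authors made with GCRMA, per the submitters' processing notes, with version and settings not given. GCRMA by its usual settings corrects background, normalizes quantiles between arrays and summarizes probes, which compresses dim values toward a floor. A platform annotation gave 1 gene symbol for 41097 probe sets, several for 1801 and none for 11777. Probe sets with 1 symbol above a log2 value of 4 on at least 3 arrays were kept, and the one with the highest mean stood for its gene. CsA effects were tested with limma 3.58.1 (R 4.3.3) on the 6 arrays of each time, the interaction and the control time change on all 12, and the CsA time change, a comparison added after the data were seen, on the 6 CsA arrays. Tests were two-sided, adjusted by Benjamini-Hochberg over 11154 genes with a threshold of 0.05. The number of arrays limits the precision, and whether the labelled biological replicates are separate cultures is not described further. No pair of arrays held identical values.

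The members, the lists and the tests were chosen with earlier results of these data known. All members were to be named, with full values for those past the threshold, for the largest CsA effect in each role group, and for ASNS, SLC7A11, SLC3A2, PHGDH, PSAT1, MTHFD2 and PCK2; values of MTHFD1, ALDH18A1, CARS1, SARS1 and YARS1 at 48 h were added because an alternative called them. Same-numbered arrays shared deviations from their group means across genes, and differently numbered arrays were not compared. The correlation was 0.467 to 0.577 for the 12 h groups and 0.278 to 0.325 for the controls, and these arrays are read as paired by number. At 48 h it was 0.0963, 0.300 and -0.0506 for replicates 1 to 3, and between the CsA groups it was -0.00583 to 0.222. Pairing there is unclear, and replicate 1 of both 48 h groups also shared a low poly-A control signal (4.13 and 3.78). The main tests did not use the replicate numbers. The fits were run on simulated data with independent noise for each gene and array, to check that they return the size of an added change. Deviations shared by same-numbered arrays were not simulated, so that check cannot speak to false calls under pairing. Alternatives were other fits, filters, probe set rules, centring, a replicate block, array weights and left-out arrays. Promoter sequences came from RefSeq, GRCh38.p14.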

Additional observations from a re-analysis of the deposited data

How the results depend on the processing

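The time changes held: in control 27 to 29 members passed and with CsA 25 to 29, over every alternative run. The lost calls in control were SLC38A2 and SLC1A5, both without the 48 h replicate 1 arrays and each without 1 control array as given above. With CsA they were VARS1 (without replicate 1 or 2 at 12 h) and PSPH (without replicate 2 at 12 h, without replicate 1 at 48 h, alone or with that of control, or with no filter). With the mean of all probe sets the median change of the members in control was 1.19. No alternative run called a member for CsA at 12 h. The comparison between CsA times and the fit of the control arrays alone were added after seeing the data. For CsA at 48 h, the number of members called was 7 with all 12 arrays in 1 fit, 7 with array weights, 2 with a spread for each time, 2 with trend and robust priors, 1 with the mean of all probe sets and 1 with a minimum of 6, against 0 on the 48 h arrays alone as reported, and 0 with each array left out. In the same order, these alternatives called 1795, 2018, 634, 310, 88 and 224 of all genes, against 123 as reported. All genes were 11154, or 10159 with the minimum of 6. The median change of the members at 48 h was 0.063 to 0.16 with 1 array left out. For the difference between times, 1 member was called with the replicate block, 3 with array weights and 0 to 2 with 1 array left out. The block called 396 of all 11154 genes, array weights 1199 and the run without control replicate 3 at 48 h 329, against 125 as reported. The block changed no other call of a member than that of SLC7A11. Among members with values named, 4 turned sign. At 12 h, PHGDH ranged over -0.12 to 0.10 and PSAT1 over -0.11 to 0.046 with 1 array left out. At 48 h, PCK2 was -0.043 with array weights and -0.042 to 0.22 with 1 array left out, and MTHFD2 was -0.027 with the mean of all probe sets. The causes were not tested.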
